A study of Mus musculus with 6 samples.

Results

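A set of 10 regulators of undifferentiated spermatogonia and their progenitors, Zbtb16, Sall4, Foxo1, Taf4b, Lin28a, Utf1, Nanos3, Sox3, Neurog3 and Upp1, were followed across spermatogonial stem cell libraries from the mouse testis. They were chosen by symbol, and all 10 were found among the 51912 genes of the count table. RNA was measured by Smart-Seq2, which amplifies whole cDNA from little input, in THY1-positive, c-KIT-negative cells flow-sorted from C57BL/6J testes at postnatal day 4. The comparison was between 3 wild type libraries and 3 Bud31-vKO libraries, from mice in which Bud31, a protein of the spliceosome, had been deleted with Cre and loxP. The sources used here do not say which promoter drives Cre, which exons were deleted, how many cells a library holds or whether libraries came from separate animals, so p-values measure the spread between these libraries, which may be technical. The count table names its columns C1 to C3 and T1 to T3, read here as wild type and Bud31-vKO libraries 1 to 3, and the sample labels do not spell the letters out.

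Male germ cells of the newborn testis settle on the tubule wall as undifferentiated spermatogonia. A few of these keep renewing themselves, and the others pass as progenitors toward differentiation under retinoic acid. ZBTB16 (PLZF), SALL4, FOXO1 and TAF4B are transcription regulators needed to keep the undifferentiated pool. LIN28A, UTF1, NANOS3, SOX3, NEUROG3 and UPP1 are found across the pool or mark its progenitor side, where transcripts of SOX3, NEUROG3 and UPP1 are typical.

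The upstream sequences of 4 regulators, picked after their values were seen, are shown because their levels shared one pattern, with the lowest value of each genotype in wild type library 3 and Bud31-vKO library 2. Taf4b had the same pattern, but it was left out of the search and is not shown. RefSeq windows on GRCm38.p6 were searched for 6 of the 10 genes, over the 250 bases before the start. They are given 5′ to 3′ on the gene's strand, up to the first base that GENCODE M21 places in an exon of the gene. Capitals mark matches on either strand to GGGCGG (the GC box of SP and KLF factors) and CCAAT (the box bound by NF-Y), and neighbouring matches may overlap. The stretches shown are chr7:139943606-139943788 for Utf1 (plus strand), chr8:84176553-84176802 for Nanos3 (minus strand), chr4:134018842-134019066 for Lin28a (minus strand) and chr3:52268087-52268335 for Foxo1 (plus strand), and the one for Nanos3 lies inside the gene span that GENCODE gives.
Utf1 upstream window: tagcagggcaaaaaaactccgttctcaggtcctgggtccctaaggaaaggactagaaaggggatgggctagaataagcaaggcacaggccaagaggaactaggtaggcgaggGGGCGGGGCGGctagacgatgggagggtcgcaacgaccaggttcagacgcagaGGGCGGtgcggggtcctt
Nanos3 upstream window: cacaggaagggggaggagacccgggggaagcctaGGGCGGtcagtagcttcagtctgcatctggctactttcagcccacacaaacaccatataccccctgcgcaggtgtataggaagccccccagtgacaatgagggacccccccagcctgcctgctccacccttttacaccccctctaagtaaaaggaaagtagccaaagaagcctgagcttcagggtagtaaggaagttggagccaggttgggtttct
Lin28a upstream window: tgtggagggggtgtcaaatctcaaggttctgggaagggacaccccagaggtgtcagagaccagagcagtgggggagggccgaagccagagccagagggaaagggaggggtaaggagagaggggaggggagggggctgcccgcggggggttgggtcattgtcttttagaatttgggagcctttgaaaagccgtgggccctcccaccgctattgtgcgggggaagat
Foxo1 upstream window: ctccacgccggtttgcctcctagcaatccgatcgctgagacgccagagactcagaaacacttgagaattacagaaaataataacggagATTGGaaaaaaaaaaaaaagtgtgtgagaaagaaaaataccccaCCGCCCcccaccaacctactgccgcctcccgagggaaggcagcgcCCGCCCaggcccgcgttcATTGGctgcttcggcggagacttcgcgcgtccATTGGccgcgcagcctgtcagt

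The Utf1 window held 4 GC box matches, 3 of them in the stretch shown, the Nanos3 window 1, the Lin28a window 0 and the Foxo1 window 2. The Foxo1 window also held 3 CCAAT matches, and the other 3 windows held none. Of 32817 windows of this length in the table, 32.7% held a GC box and 33.8% a CCAAT match. The forkhead letters GTAAACA, which FOXO factors bind, were in none of the 4 windows and in 3.16% of all windows, and TATAAA was in none of the 4 and in 12.4% of all. No motif searched for was in all 4 windows, and a match describes letters only.

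The libraries differed in ways that touch these genes. Totals ran from 13240704 to 18744466 reads, while genes with at least 1 read numbered 22300, 18171 and 13762 for wild type (libraries 1 to 3 in turn, an order kept below) and 20286, 12464 and 18997 for Bud31-vKO. Wild type library 3 and Bud31-vKO library 2 are therefore called the gene-poor libraries, and the other 4 the gene-rich ones. Bud31 was lower in each Bud31-vKO library (47.2, 67.6 and 80.4 CPM, read counts scaled to library size by the TMM method) than in any wild type library (138, 96.8 and 158 CPM), a direction that fits how the letters were read but does not settle it. Of all tested genes 6.39% were also lower without overlap. The log2 fold change of Bud31 was -1.01 ± 0.39 (SE; edgeR adjusted p = 0.9997), and -0.36 with libraries scaled to the germ cell markers named next. Germ cell RNA was present in every library, at a summed 4038 to 4562 CPM in wild type and 2208 to 3231 CPM in Bud31-vKO over 12 pan-germ-cell markers such as Ddx4 and Dazl, none of them at 0 throughout a genotype. The sorted cells also held stromal RNA, at 10310 to 21650 and 8151 to 14578 CPM over 6 stromal genes led by collagens. Sertoli cell genes summed to 123 to 378 CPM in wild type and 107 to 1386 CPM in Bud31-vKO, highest in Bud31-vKO library 1, and lymphocyte genes to 7.58 to 84.7 and 78.1 to 628 CPM, highest in Bud31-vKO library 2. All 8 Sertoli genes had reads in both genotypes, while 3 of 8 lymphocyte genes, Cd8a, Klrb1c and Gimap3, had none in wild type. Of these, Cd8a had no read in Bud31-vKO either. The part of these cells in the results below was not tested. In such bulk libraries fewer cells of a type and less RNA per cell cannot be told apart.

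Most of the regulators had lower mean levels in Bud31-vKO, but none passed the test for a difference between the genotypes. Of the 10 genes, 8 had enough reads for the test, and of these 7 had a log2 fold change below 0 and 1 above 0, with a median of -0.83. Lin28a, at -0.01, lay just above 0 with RLE, upper-quartile or library-size scaling, which left 6 of 8 below 0, and scaling to pan-germ-cell reads left 4 of 8, beside 22.7% of all genes. Without wild type library 1 there were 4 of 9 below 0, with a median of 0.12. Over all 15240 genes tested the median was 0.02 and 48.9% lay below 0. With edgeR's quasi-likelihood test, adjusted by Benjamini-Hochberg, 0 of the 8 were called, as were 0% of all genes. At an unadjusted p under 0.05 it was also 0 of the 8, beside 1.82% of all genes lower and 1.08% higher, and DESeq2, which called 0.315% of all genes, called none of the 8. Groups overlapped for all 10 regulators, whereas 6.39% of tested genes were lower and 4.76% higher without overlap. The adjusted p was 0.9997 for each of the 8 by edgeR.

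**Figure D1:**
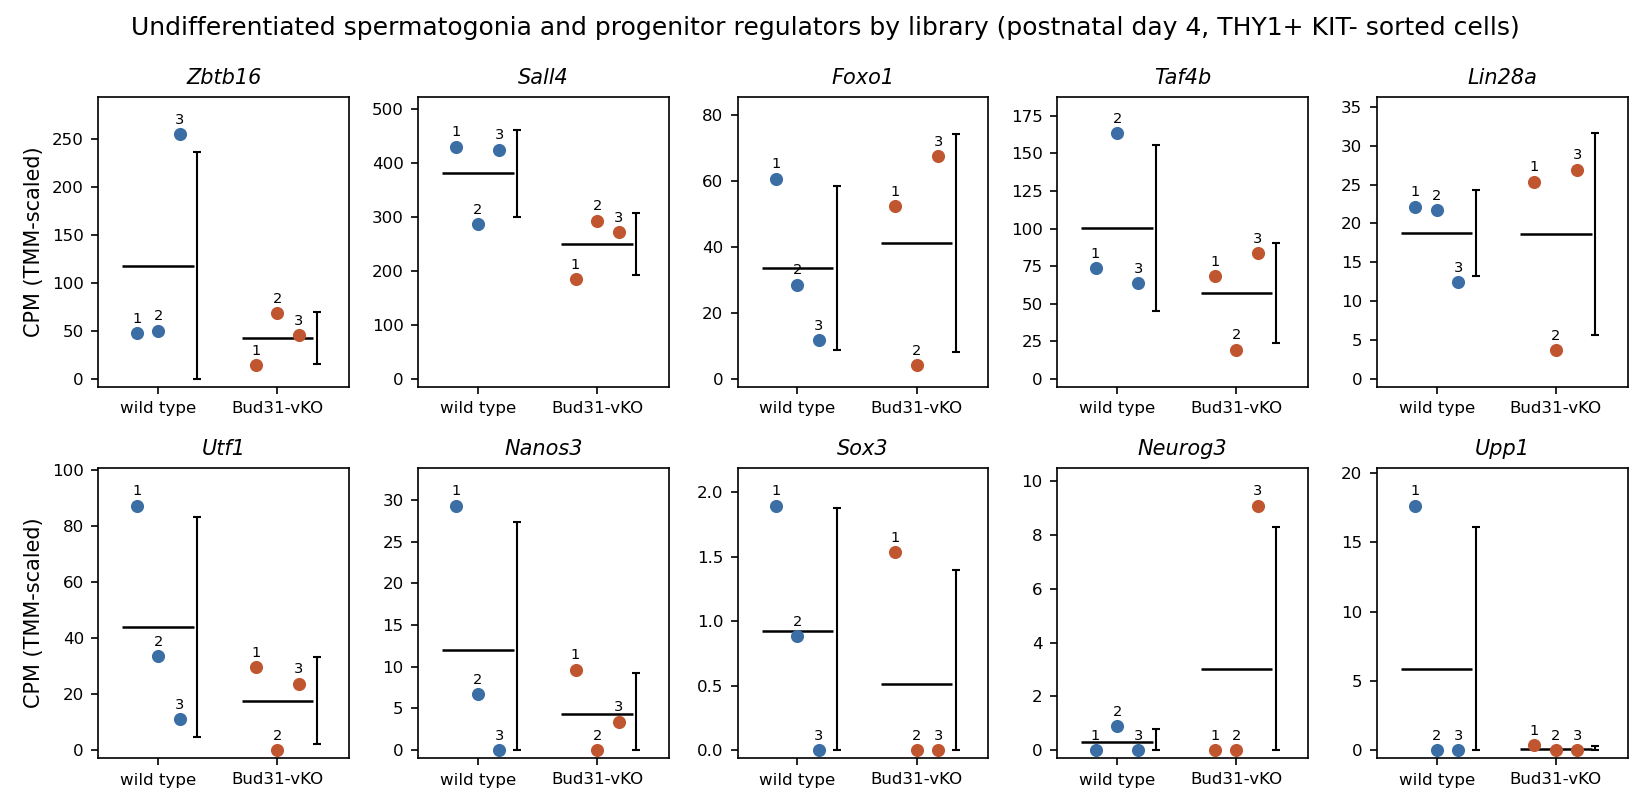
Level of each regulator in CPM (TMM-scaled, linear axis from 0) in the 3 wild type libraries (blue) and 3 Bud31-vKO libraries (orange), numbered 1 to 3, with the mean as a line and the SD as a bar that is stopped at 0. The groups overlap in every panel, and Utf1, Nanos3, Sox3, Neurog3 and Upp1 have no reads in at least 1 library.

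Among the transcription regulators of the stem cell pool, Sall4 was the most abundant per kilobase of exon and had the smallest standard error of the 8 tested. Sall4 encodes a zinc finger protein that acts with the NuRD repressor complex. Its gene spans chromosome 2 from 168748332 to 168767943 (GRCm38, minus strand). Wild type levels were 430, 287 and 424 CPM, and Bud31-vKO levels 185, 293 and 272 CPM. Wild type library 2 lay inside the Bud31-vKO range, and the other two wild type libraries lay above it. The means were 380 ± 81.2 and 250 ± 57.2 CPM (SD, n = 3 each). This gave a log2 fold change of -0.61 ± 0.31 (SE; edgeR unadjusted p = 0.0916, adjusted p = 0.9997). In the gene-rich libraries the log2 fold change was -0.64.

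The pan-germ-cell markers were lower in Bud31-vKO as a sum, without overlap, so Sall4 was also set against them. Singly they were uneven, with 11 of 12 below 0 and log2 fold changes from -2.24 (Elavl2) to 0.18 (Piwil2). Groups overlapped for markers such as Dazl and Piwil2, and did not for others such as Ddx4 and Mael. Elavl2 and Rnf17 had no read in Bud31-vKO library 2. Per 10000 reads of the 12 markers, Sall4 reached 943, 698 and 1051 for wild type against 839, 1126 and 842 for Bud31-vKO. The means of 898 ± 181 and 936 ± 165 (SD, n = 3 each) differed by less than the spread between libraries. With libraries scaled to the marker reads, the log2 fold change of Sall4 was 0.06 ± 0.32 (SE), and that scaling moved the median of all genes from 0.02 to 0.72.

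**Figure D2:**
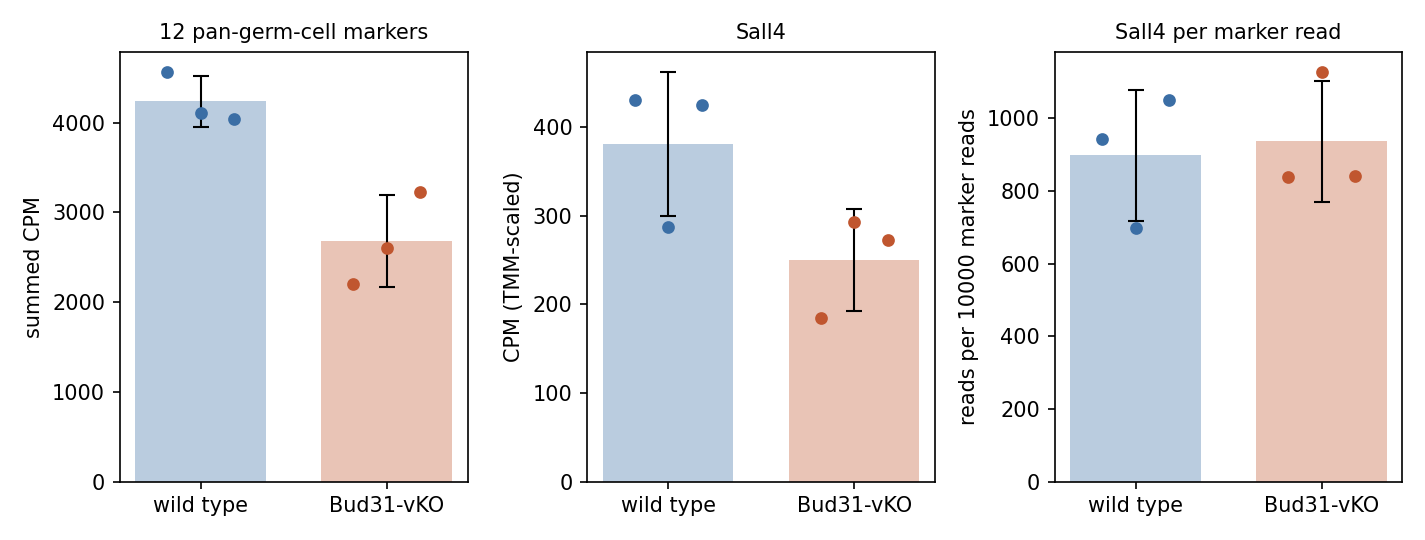
Summed CPM of 12 pan-germ-cell markers (left), Sall4 in CPM (middle) and Sall4 reads per 10000 marker reads (right), with bars at the mean of 3 libraries, SD as error bars and a point per library. The marker sum does not overlap between genotypes (4038 to 4562 against 2208 to 3231 CPM), while Sall4 per marker read has means of 898 and 936.

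The lower mean of Zbtb16 in Bud31-vKO rested on 1 wild type library. Zbtb16 encodes PLZF, a zinc finger repressor required for the upkeep of spermatogonial stem cells, and spans chromosome 9 from 48654297 to 48836222 (minus strand). The wild type libraries had 47.8, 50.2 and 254 CPM, and the Bud31-vKO libraries had 14.5, 68.5 and 45.7 CPM. Wild type library 3, 1 of the gene-poor ones, stood far above the rest, and the other wild type values lay inside the Bud31-vKO range. That library also had the highest stromal sum (21650 CPM), whose part in its Zbtb16 level was not tested. The means were 117 ± 119 and 42.9 ± 27.1 CPM (SD, n = 3 each), with a log2 fold change of -1.45 ± 0.84 (SE; edgeR unadjusted p = 0.122). Without wild type library 3 it was -0.17, and in the gene-rich libraries -0.69. The lowest value of the 6 was in Bud31-vKO library 1. That library also had the highest Sertoli cell sum (1386 CPM) and the lowest pan-germ-cell sum (2208 CPM), whose part in its Zbtb16 level was not tested. Most of that Sertoli sum came from Clu (854 CPM). The other Sertoli genes were also highest there, except Cldn11, which was highest in wild type library 2 (46.5 CPM).

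Taf4b and Foxo1, the other two transcription regulators, had log2 fold changes of opposite sign, and both overlapped widely between genotypes. Taf4b, on chromosome 18, encodes a germ-cell-enriched subunit of the general transcription factor TFIID. In wild type there were 73.7, 164 and 63.7 CPM, and the Bud31-vKO libraries had 68.4, 19.4 and 83.6 CPM. Wild type library 2 was the high value, Bud31-vKO library 2 the low one, and the other 4 lay between 63.7 and 83.6 CPM. The log2 fold change was -0.81 ± 0.65 (SE), and -0.28 without wild type library 2.

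Foxo1 encodes the forkhead factor that PI3K and AKT signalling keeps out of the nucleus. It lies on chromosome 3 from 52268336 to 52353221. Wild type levels were 60.7, 28.6 and 11.7 CPM, and Bud31-vKO levels 52.3, 4.21 and 67.5 CPM. Both low values of their genotype came from the gene-poor libraries. The log2 fold change was 0.30 ± 1.05 (SE), and it turned to -0.10 without wild type library 3 and to -0.26 without Bud31-vKO library 3.

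The RNA-binding regulators Lin28a and Nanos3 differed in how often they were seen. LIN28A blocks the maturation of let-7 microRNAs, and its gene lies on chromosome 4 from 134003330 to 134018841. Reads in wild type amounted to 22.2, 21.7 and 12.5 CPM, and the Bud31-vKO libraries had 25.4, 3.71 and 26.9 CPM. Apart from Bud31-vKO library 2, every value lay between 12.5 and 26.9 CPM, and the means were 18.8 ± 5.48 and 18.7 ± 13.0 CPM (SD, n = 3 each). The log2 fold change was -0.01 ± 1.04 (SE), so a change of 2-fold (1 on the log2 scale) in either direction lay within 1 standard error. Its sign changed in 11 of the 16 alternatives, in which it ran from -0.41 to 0.68.

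Nanos3, on chromosome 8 from 84173731 to 84185217, encodes a zinc finger protein that protects germ cells and represses mRNAs. Levels in the wild type libraries were 29.3, 6.74 and 0 CPM, and Bud31-vKO levels 9.65, 0 and 3.40 CPM. The zeros fell in the 2 gene-poor libraries, where 3 reads would be 0.175 and 0.214 CPM. Such zeros were common at this abundance, since of 4395 genes with a mean of 5 to 20 CPM in the other 4 libraries 34.2% had no read in wild type library 3 and 41.3% none in Bud31-vKO library 2. The log2 fold change was -1.46 ± 2.48 (SE), and it was 0.36 without wild type library 1, which held the highest level.

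Utf1, a chromatin-bound protein of pluripotent cells and early spermatogonia, was highest in wild type library 1. So were Sall4, Nanos3, Sox3 and Upp1. Utf1 lies on chromosome 7 from 139943789 to 139945112. Wild type values were 87.3, 33.6 and 11.1 CPM, and Bud31-vKO levels 29.5, 0 and 23.7 CPM. The lowest value of each genotype was again in the gene-poor libraries. Of 3352 genes with a mean of 20 to 50 CPM in the other 4 libraries, 13.7% had no read in Bud31-vKO library 2. Utf1, at a mean of 43.5 CPM there, lay in the upper part of this band. Of genes with a mean of 50 to 100 CPM, 3.62% had no read in that library. The log2 fold change was -1.31 ± 1.69 (SE), -1.17 ± 0.60 (SE) in the gene-rich libraries, and -0.34 without wild type library 1.

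**Figure D3:**
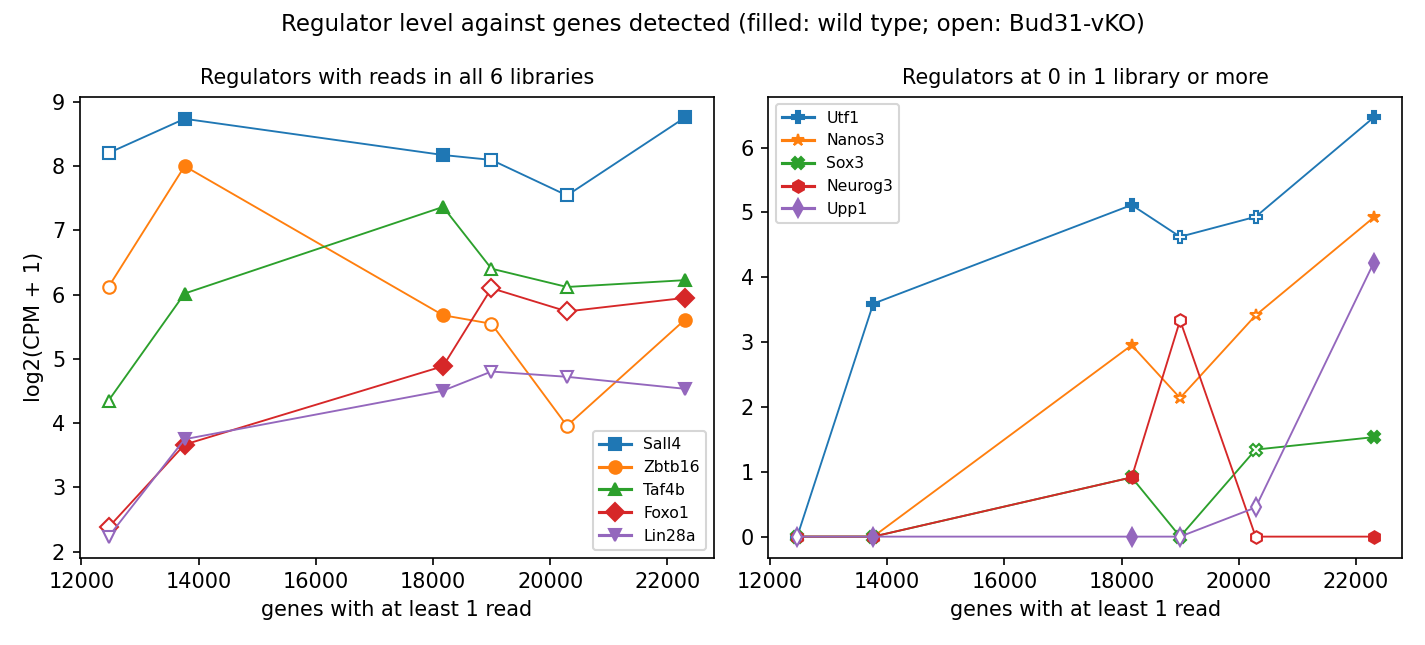
Level of each regulator as log2(CPM + 1) against the number of genes with at least 1 read in the library, for wild type (filled) and Bud31-vKO (open), with lines joining the libraries of 1 gene. Foxo1, Lin28a, Taf4b, Utf1 and Nanos3 are lowest in the 2 libraries with 12464 and 13762 genes, while Sall4 and Zbtb16 are not.

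The progenitor-side genes Sox3, Neurog3 and Upp1 had reads in 3, 2 and 2 of the 6 libraries. Sox3, a single-exon HMG-box transcription factor gene on the X chromosome from 60891366 to 60893430, had 26, 16 and 0 wild type reads, against 21, 0 and 0 in Bud31-vKO. At most 1.90 CPM was reached, and its log2 fold change of -0.84 had a standard error of 2.47. It was -6.83 without Bud31-vKO library 1, the only Bud31-vKO library with Sox3 reads, and 0.20 without wild type library 1.

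Neurog3, the basic helix-loop-helix factor of progenitor spermatogonia, lies on chromosome 10 from 62133090 to 62134763. It had 0, 16 and 0 wild type reads, against 0, 0 and 123 in Bud31-vKO. Its level thus rested on Bud31-vKO library 3, at 9.09 CPM, and on wild type library 2, at 0.88 CPM. Its exons share 273 bases with Fam241b on the other strand, which had 581, 1203 and 1615 wild type reads, against 64, 0 and 767 in Bud31-vKO, and the sources used here do not say whether counting used strand.

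Upp1, a uridine phosphorylase used as a progenitor transcript, lies on chromosome 11 from 9118103 to 9136170. It had 242 reads in wild type library 1 and 5 in Bud31-vKO library 1, and the other 4 libraries had none. Neurog3 and Upp1 did not pass the filter on low counts and were not tested. Of 5017 genes with a mean of 1 to 5 CPM in the gene-rich libraries, the band of Sox3, Neurog3 and Upp1, 66.1% had no read in wild type library 3 and 72.1% none in Bud31-vKO library 2.

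**Figure D4:**
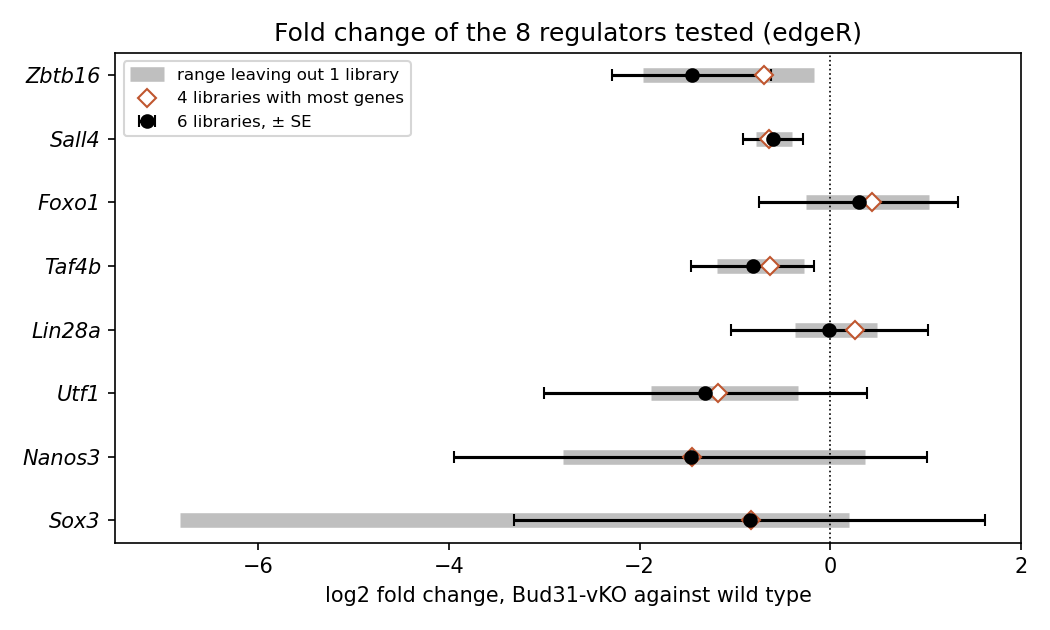
Log2 fold change (Bud31-vKO against wild type) of the 8 regulators tested by edgeR, with the standard error (black), the range when 1 library at a time is left out (grey) and the value in the gene-rich libraries (open diamonds). Sall4, Zbtb16, Taf4b and Utf1 stay below 0 with any 1 library left out, Foxo1, Lin28a, Nanos3 and Sox3 do not, and Sall4 has the shortest error bar.

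Set in order of level per kilobase of exon in wild type (CPM divided by exon length in kilobases), Sall4 led at 68.7 ± 14.7, followed by Utf1 at 35.9 ± 31.9, Zbtb16 at 22.2 ± 22.4 and Taf4b at 19.5 ± 10.7 (SD, n = 3 each). Nanos3 came next at 13.0 ± 16.6, then Lin28a at 4.70 ± 1.37, Foxo1 at 3.89 ± 2.88 and then Upp1, whose level came almost wholly from wild type library 1. Sox3 and Neurog3 were last, at 0.45 ± 0.46 and 0.18 ± 0.30. From Utf1 to Nanos3, from Lin28a to Upp1 and for Sox3 and Neurog3, neighbours in this order were within each other's SD. In Bud31-vKO Sall4 again led, at 45.2 ± 10.3, ahead of Utf1 at 14.5 ± 12.7 and Taf4b at 11.1 ± 6.51.

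The genes range widely in the number of exons, a feature not used to choose them. The transcript with the most exons has 1 in Sox3, 2 in Utf1, Nanos3 and Neurog3, 3 in Foxo1, 4 in Sall4 and Lin28a, 7 in Zbtb16, 9 in Upp1 and 15 in Taf4b. No relation of exon number to fold change was tested.

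Genes that act beside these regulators gave no call either. Of 11 self-renewal genes tested 6 were below 0 (median -0.10), of 9 differentiation genes 8 (median -0.96), of 10 paralogues of the regulators 7 (median -0.56), and of 22 partner genes 13 (median -0.27), beside 48.9% of all genes, with 0 called in either direction in each list by edgeR and 0% of all genes. At an unadjusted p under 0.05 there was 1 gene lower among the self-renewal genes, 3 lower and 1 higher among the partners, and none in the other two lists, beside 1.82% of all genes lower and 1.08% higher. The pan-germ-cell list, with 11 of 12 below 0 and a median of -0.64, had 3 lower.

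The genes with the smallest p in each list are given by their levels. Etv5, a GDNF-responsive transcription factor of self-renewal, averaged 242 ± 92.9 CPM against 80.2 ± 54.5 CPM in Bud31-vKO (SD over 3 libraries), or -1.60 ± 0.54 (SE) on the log2 scale. Lhx1, a homeobox gene downstream of GDNF, had 0.76 ± 0.64 (SE), and -0.18 without Bud31-vKO library 3, which held its highest level. Among the partners, Dmrt1, a transcription factor of germ and Sertoli cells, measured 191 ± 69.8 against 72.4 ± 29.8 CPM without overlap (2.64-fold lower). Over all tested genes 6.39% were lower without overlap. With scaling to pan-germ-cell reads, the log2 fold change was -0.75 in place of -1.40 for Dmrt1 and -0.92 in place of -1.60 for Etv5.

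Tut7, a terminal uridylyltransferase that can act with LIN28A on let-7 precursors, had wild type levels of 44.8, 30.5 and 49.9 CPM and Bud31-vKO levels of 69.4, 264 and 83.6 CPM. It was higher in each Bud31-vKO library, most of all in library 2, with a log2 fold change of 1.74 ± 0.60 (SE), and 0.88 without that library. Library 2 also had the fewest genes detected (12464) and the highest lymphocyte sum (628 CPM), whose part in the Tut7 level was not tested. That sum came mostly from Ptprc (328 CPM) and Gimap3 (217 CPM). Cd3g and Klrb1c were also highest in Bud31-vKO library 2, while Nkg7 and Gzma were highest in library 1 and Cd3e in library 3. Dmrtb1 and Dnmt3b of the differentiation list had -5.13 ± 2.50 and -1.37 ± 0.70 (SE), and with 1 library left out they ran from -10.6 to -4.35 and from -1.81 to -0.66. The paralogues Foxo3 and Sox2 had -1.27 ± 1.44 and 1.38 ± 2.35 (SE), and ran from -3.15 to -0.61 and from 0.78 to 6.30. By edgeR the adjusted p of all 8 named here was 0.9997, and Dmrtb1 had 15, 0 and 0 reads in the Bud31-vKO libraries.

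The sort markers bear on what the cells were. Thy1 averaged 13.3 ± 2.85 CPM against 16.4 ± 12.1 CPM for Bud31-vKO (SD over 3 libraries), and its log2 fold change of 0.30 turned to -0.48 without Bud31-vKO library 3. Kit, the receptor of differentiating spermatogonia that the sort selected against, had wild type levels of 28.9, 63.0 and 0.35 CPM and Bud31-vKO levels of 24.0, 0.50 and 14.0 CPM, again lowest in the 2 gene-poor libraries.

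The gene whose pattern over the 6 libraries came closest to a tested regulator was sought among 99 genes of the other lists, by the root-mean-square difference of mean-centred log2 CPM. Sall4 lay closest to the pan-germ-cell gene Tdrd9, at 0.27 against a median of 1.18 over the 99. Lin28a lay closest to Tut4 (0.40, median 1.54), Taf4b to Taf12 (0.47, median 1.40), Nanos3 to Foxc2 (0.49, median 2.91) and Zbtb16 to Dnmt3b (0.55, median 1.85). Utf1 lay closest to Hdac2 (0.88, median 2.92) and Sox3 to Rhox13 (1.36, median 2.05). The closest of 99 genes over 6 libraries is a description, and no test was made of it.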

How the data were processed

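Whole-number read counts per Ensembl gene were used as the authors deposited them, with no scaling. The labels name Smart-Seq2, and bcl2fastq and the build mm10 are named per the submitters' processing notes. The sources used here do not give the aligner, counting tool, annotation or use of strand. Symbols, exons and coordinates came from GENCODE M21 (GRCm38), which matched 99.5% of the 51912 identifiers.

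Genes were kept with filterByExpr (minimum count 10, minimum total 15), which left 15240. Libraries were scaled by TMM and compared with edgeR 4.0.16's quasi-likelihood test in R 4.3.3, adjusted over all genes tested at 0.05. The standard error is the log2 fold change divided by the root of F. CPM use TMM factors, and 3 reads, taken as the limit that a count of 0 allows, equal 0.166 to 0.222 CPM, for counting error only. An exact permutation test of 3 against 3 cannot go below 0.1. The edgeR steps were also run on simulated counts with known changes. These did not copy the gene-poor libraries, and no result here rests on them. The biological coefficient of variation was 119%.

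Genes named are the 10 regulators, Bud31, Thy1, Kit, the 2 of smallest p in each of the 4 neighbouring lists and the closest-pattern genes. Overlapping genes, and markers named from a cell type list, were added after values were seen. The regulators and lists were chosen with earlier results of these data known. Summed marker CPM ran from 0 to 17.5 in wild type and 4.57 to 20.6 in Bud31-vKO for Leydig, 87.5 to 651 and 85.0 to 288 for peritubular myoid, 0.12 to 97.8 and 4.35 to 178 for endothelial, 12.1 to 155 and 13.3 to 96.1 for macrophage, and 8.90 to 74.5 and 1.07 to 216 for erythroid genes. Alternatives were other scalings, filters, DESeq2 1.42.0, limma-voom (limma 3.58.1), a block for the library number and libraries left out. The nearest-pattern result for Foxo1 is not reported here.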

Additional observations from a re-analysis of the deposited data

How the results depend on the processing

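Over the 16 alternatives no regulator was called. The number of genes called over the whole table was 0 by edgeR, 7 with no filter on low counts, 48 with DESeq2, and 0 in the other 14 alternatives, among them each library left out in turn (0 to 0). Of the tested regulators 4 of 8 were below 0 with scaling to pan-germ-cell reads, where Sall4 had 0.060, Lin28a 0.68 and Sox3 0.13, and 22.7% of all genes were below 0 (median 0.72). With a library left out, 4 to 8 were below 0, 4 of 9 without wild type library 1, and the median ran from -0.95 to 0.12. Lin28a turned to 0.015 with RLE scaling, library-size scaling or DESeq2, 0.012 with upper-quartile scaling or the 5 CPM filter, 0.0017 with no filter, and 0.26 in the 4 gene-rich libraries. With a library left out, Lin28a ran from -0.37 to 0.49, Foxo1 from -0.26 to 1.03, Nanos3 from -2.81 to 0.36, Sox3 from -6.83 to 0.20, Thy1 from -0.48 to 0.66 and Lhx1 from -0.18 to 1.15. Foxo1 turned to -0.090 with limma-voom. The cause of these turns was not tested.

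With a replicate block for the library number Foxo1 was -0.16, 8 of 8 tested regulators were below 0, the median was -1.06, and 0 genes were called. Deviations of same-numbered libraries from their group means correlated at 0.19, 0.04 and -0.08. Wild type libraries 1 and 2 correlated best with their own numbers, though weakly, and wild type library 3 did not. The labels do not say that the numbers pair the samples, so they were not taken to.

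The spread between libraries, and for Nanos3, Sox3, Neurog3 and Upp1 the few reads, limit these comparisons. The adjusted p of 0.9997 says nothing of equal levels.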

Other observations

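Neurog1 and Neurog2, the paralogues of Neurog3, had no read in any library, and Nanos2, the self-renewal paralogue of Nanos3, had 1 read in all.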
